A study of Rattus norvegicus with 4 samples.

Results

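The genes described here are those of Wnt signalling: the ligands, their receptors and co-receptors, the secreted inhibitors and the proteins that carry the signal to the nucleus. Members were taken by symbol, from the families Wnt, Fzd, Sfrp, Dkk, Dvl, Axin, Lgr and Rspo and from 16 further names. The rule found 59 of the 17244 symbols of the gene table, on 61 rows. Znrf3 and Tcf7, which the rule also names, had no row in the gene table under those symbols and could not be analysed. For symbols with more than 1 row, the row with the highest mean was used.

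The samples were cultures of RSC96, a rat cell line established from Schwann cells, which are the glial cells of peripheral nerves. All cells were kept without serum overnight. The IL-22 group then received recombinant rat IL-22, a cytokine that signals mainly through STAT factors, at 100 ng/ml for 48 h. The control group received the solvent, 0.1% bovine serum albumin, and its exposure time is not in the labels. Each group had 2 libraries of poly(A) RNA, and nothing in the labels says that they came from separate cultures. The p-values therefore reflect differences among these 4 libraries alone, and that spread may be technical.

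Wnt proteins are secreted lipid-modified ligands that bind a Frizzled receptor together with the co-receptor LRP5 or LRP6. Binding recruits Dishevelled and disables a complex of Axin, APC and the kinase GSK3, which otherwise marks beta-catenin for degradation. Stabilised beta-catenin enters the nucleus and acts through TCF/LEF factors. Other branches run through Frizzled, ROR or RYK receptors without beta-catenin. In Schwann cells the pathway is known to act on development and on myelin gene expression.

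Values are FPKM, fragments scaled by transcript length and library size, so levels can be set side by side between genes. If the values were scaled by library total, the spacing of low values puts each IL-22 library at 1.08 times the depth of control library 1. Control library 2 would then lie at 1.28 times. The scaling is not stated, so these relative depths are uncertain. Absolute depth is unknown. The summed FPKM of the table were 658909 and 669549 in the IL-22 libraries and 636818 and 630119 in the controls. The 3 ribosomal RNA rows summed to 593 and 614 FPKM with IL-22 and to 6914 and 4834 FPKM in controls. Of 12 Schwann lineage markers 8 stayed under 1 FPKM in every library, with Cdh19 and Gap43 listed at 0 in all 4 and Sox10 and S100b at 0 in 3. That list summed to 41.4 to 47.0 FPKM with IL-22 and 27.7 to 28.7 FPKM in controls, mostly from Ncam1. Of its 4 markers tested, 3 were called higher and 1 lower, where 58.4% of all tested rows were called. Erbb3, Egr2 and Gfap of these reached the minimum for testing only through the group in which they were high. Of 7 fibroblast markers 3 were higher and 2 lower, with sums of 406 to 411 FPKM with IL-22 and 400.1 to 409 FPKM in controls and with Dcn and Lum at 0. Of 7 macrophage markers 2 were tested and 0 passed. The macrophage list summed to 3.80 to 6.25 FPKM with IL-22 and 4.19 to 4.47 FPKM in controls, with Aif1 and Emr1 at 0. Of 4 endothelial markers 0 reached the minimum for testing, with sums of 0.623 to 0.808 FPKM with IL-22 and 1.61 to 1.84 FPKM in controls. The part of these differences in the results was not tested. In bulk RNA, fewer cells of a type and less RNA per cell cannot be told apart.

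The promoter windows of Axin2, Fzd4 and Lgr4 are shown for the letters of a TCF/LEF core, CTTTGA, or of a STAT palindrome, TTCNNNGAA, the first bound by the factors at the end of the Wnt pathway and the second by the STAT factors through which IL-22 signals. They come from RefSeq on the build GRCr8, run from 250 bases before to 50 bases after the annotated start, and are on the plus strand. The Axin2 window lies at chr10:94398535-94398834, the Fzd4 window at chr1:152692257-152692556 and the Lgr4 window at chr3:116901718-116902017. Capitals mark the motif letters.
Axin2: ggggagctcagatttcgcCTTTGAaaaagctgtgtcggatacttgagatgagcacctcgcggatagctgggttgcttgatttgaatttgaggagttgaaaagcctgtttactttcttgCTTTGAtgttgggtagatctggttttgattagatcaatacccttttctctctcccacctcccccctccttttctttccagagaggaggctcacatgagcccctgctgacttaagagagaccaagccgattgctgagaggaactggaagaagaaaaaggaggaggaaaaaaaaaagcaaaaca
Fzd4: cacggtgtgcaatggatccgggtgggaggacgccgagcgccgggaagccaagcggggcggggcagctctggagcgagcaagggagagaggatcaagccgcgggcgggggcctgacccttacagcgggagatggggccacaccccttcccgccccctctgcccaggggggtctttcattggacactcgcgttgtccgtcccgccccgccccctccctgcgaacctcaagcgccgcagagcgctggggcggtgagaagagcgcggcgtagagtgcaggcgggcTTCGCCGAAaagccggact
Lgr4: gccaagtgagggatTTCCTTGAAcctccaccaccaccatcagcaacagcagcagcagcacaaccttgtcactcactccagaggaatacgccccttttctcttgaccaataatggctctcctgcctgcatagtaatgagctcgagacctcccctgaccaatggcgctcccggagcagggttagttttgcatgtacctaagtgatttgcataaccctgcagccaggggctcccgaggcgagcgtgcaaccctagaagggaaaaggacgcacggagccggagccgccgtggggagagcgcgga
Both matches of Axin2, a gene that beta-catenin induces in many tissues, were TCF/LEF cores upstream of the start. The match of Fzd4 was a STAT palindrome after the start, and that of Lgr4 a STAT palindrome upstream of it. Both strands were searched, and 43 of the 59 members had a window. Among the tested members with a window, only Axin2, Fzd4 and Lgr4 had a match. A TCF/LEF core stood in 3 of these 43 (6.98%), those of Axin2, Dkk1 and Wnt8a, against 16.1% of all 33469 windows of the table. A STAT palindrome stood in 2 (4.65%), those of Fzd4 and Lgr4, against 8.87% of all windows, and 0 member windows held both. Matches are letters in a window and were not tested for binding.

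After IL-22 the tested Wnt genes moved in both directions, by modest amounts on a log scale that shrinks differences of low genes. Lrp5, Porcn, Gsk3b, Dvl2, Fzd4 and the low secreted inhibitors Wif1 and Dkk4 were higher, while Ctnnb1, Axin1, Wnt5a, Wnt10b and Fzd1 were lower. Of the 59 members, 27 averaged 1 FPKM or more across the libraries and were tested with limma on log2(FPKM + 1), with Benjamini-Hochberg adjustment over all 9485 rows tested. At an adjusted p under 0.05, 10 were higher, 6 were lower and 11 did not pass. Over all tested rows 58.4% were called, 27.6% higher and 30.8% lower, so the members were called about as often as any gene. The smallest two-sided p of an exact permutation test of 1 gene is 0.33 in this design, so each call depends on limma's pooling of the variance over genes.

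On the log2(FPKM + 1) scale, none of the 27 tested members differed by 1 unit or more, where 7.53% of all tested rows did. Their differences ran from -0.63 to 0.76, with a median of 0.08 beside -0.02 over all tested rows. This scale shrinks differences of low genes. The IL-22 mean of Wif1 was 2.60 times its control mean, although its difference was 0.76. The IL-22 and control libraries did not overlap in 20 tested members, 12 higher and 8 lower. Over all tested rows 80.1% did not overlap, 38.4% higher and 41.7% lower. Wif1, Lgr4 and Rnf43 reached the minimum only through their IL-22 libraries, since their control means were below it. The counts over tested members are therefore a description.

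**Figure D1:**
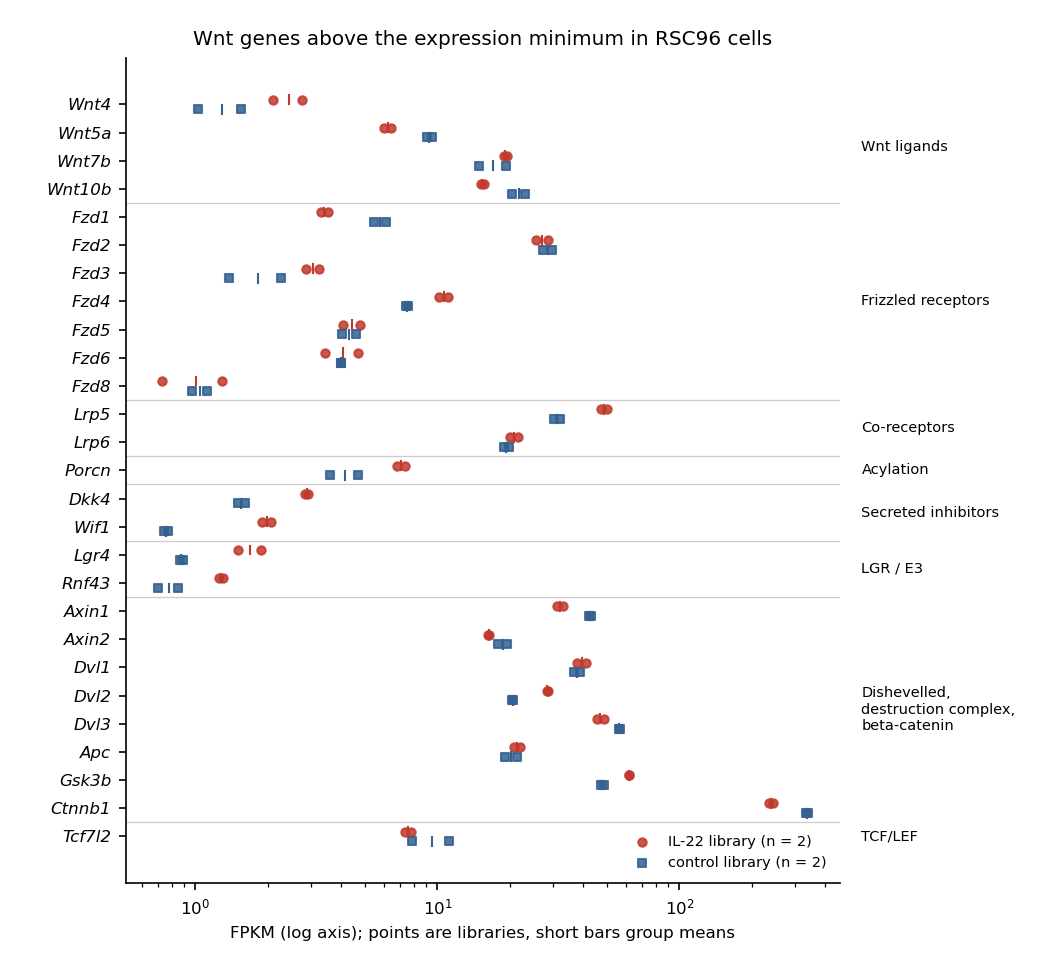
FPKM (log axis) of the 27 tested Wnt genes, grouped by role, with IL-22 libraries as circles above control libraries as squares (n = 2 each) and short bars at the group means. Ctnnb1 lies apart at 235 to 338 FPKM, and the secreted inhibitors and LGR genes lie near the minimum.

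Among the ligand genes with a row, Wnt7b, Wnt10b and Wnt5a made up nearly all of the summed FPKM. That sum was slightly smaller with IL-22. Wnt2 had no row under that symbol. The 18 ligand genes with a row summed to 45.2 and 44.1 FPKM in IL-22 libraries and to 49.3 and 51.7 FPKM in controls. Wnt10b, a ligand that acts through beta-catenin, measured 15.6 and 15.1 FPKM with IL-22 and 23.0 and 20.3 FPKM in controls. The groups did not overlap and both IL-22 libraries were below both controls (difference -0.47 ± 0.09 SE, limma adjusted p = 0.00202). Wnt5a, best known for signalling without beta-catenin, measured 6.02 and 6.46 FPKM with IL-22 and 9.04 and 9.48 FPKM in controls. It too was lower in both IL-22 libraries (-0.50 ± 0.10 SE, limma adjusted p = 0.00271). Wnt7b, which acts through beta-catenin in several tissues, measured 19.3 and 18.9 FPKM with IL-22 and 14.8 and 19.2 FPKM in controls. Its groups overlapped, with control library 1 alone lower, and it did not pass (0.17, 95% interval from -0.09 to 0.43, limma adjusted p = 0.234). Without control library 2 it passed as higher (0.35, limma adjusted p = 0.0274), and without control library 1 the difference was -0.0056.

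The order of the leading ligands differed between the groups. Wnt7b was the most abundant in both IL-22 libraries, at 42.7% and 42.8% of the ligand sum, and Wnt10b the most abundant in both controls, at 46.7% and 39.2%. In control library 2 the pair lay close together, at 20.3 FPKM for Wnt10b and 19.2 FPKM for Wnt7b. The order was not tested. Wnt4, a ligand of kidney and gonad development, measured 2.76 and 2.09 FPKM with IL-22 and 1.55 and 1.02 FPKM in controls, with no overlap. It was called higher (0.59 ± 0.18 SE, limma adjusted p = 0.0199). That call was lost without control library 2 (0.42, limma adjusted p = 0.121) and when IL-22 library 1 was left out (0.45, limma adjusted p = 0.124). It was also lost with quantile normalization and without the filter, over a range of limma adjusted p from 0.00514 to 0.134 in 15 alternatives.

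The other 14 ligand genes lay under the minimum. Wnt1, Wnt3a, Wnt7a, Wnt8a, Wnt9b, Wnt11 and Wnt16 were listed at 0 in all 4 libraries. Wnt6 was the member next below the minimum, at 0.780 and 0.959 FPKM with IL-22 and 0.455 and 1.32 FPKM in controls, so its controls lay on either side of the IL-22 libraries. Wnt2b, Wnt3, Wnt5b, Wnt8b, Wnt9a and Wnt10a stayed at or under 0.394 FPKM in every library. Porcn, the enzyme that attaches the lipid that Wnt proteins need for secretion and binding, measured 6.80 and 7.33 FPKM with IL-22 and 4.70 and 3.60 FPKM in controls. Both IL-22 libraries lay above both controls, at 1.70 times the control mean (0.66 ± 0.13 SE, limma adjusted p = 0.00262).

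**Figure D2:**
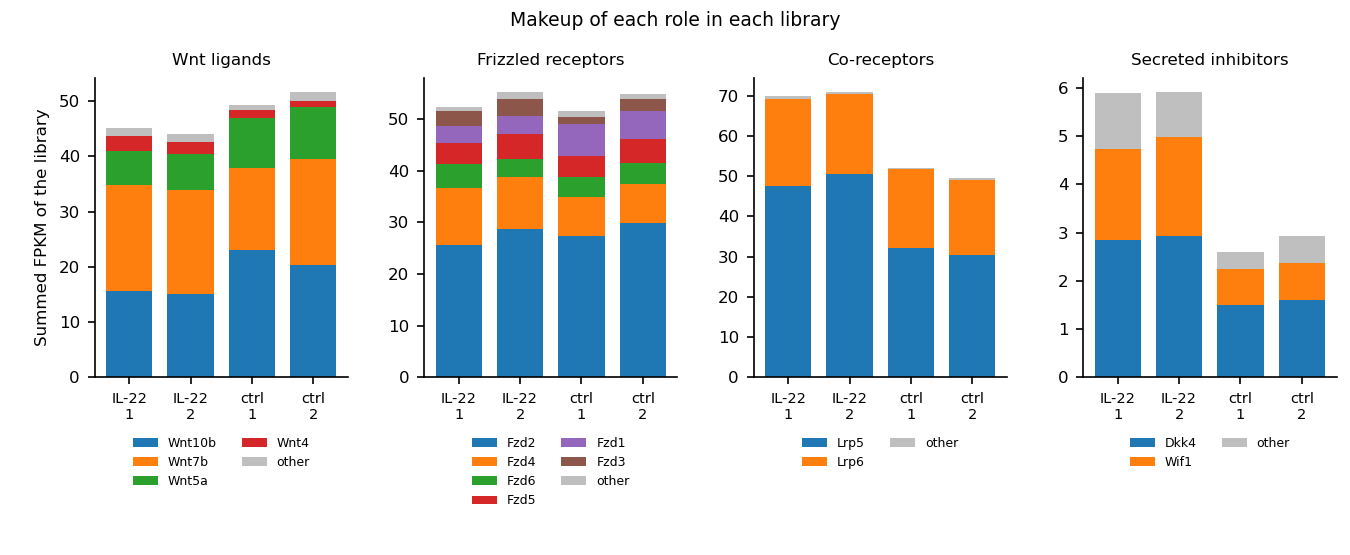
Stacked FPKM of the genes of 4 roles in each library, IL-22 libraries left of controls, with the scale starting at 0 in each panel. Wnt10b and Wnt5a take less of the ligand bar with IL-22, Lrp5 takes more of the co-receptor bar, and the summed secreted inhibitors reach 5.90 and 5.92 FPKM with IL-22 against 2.59 and 2.94 FPKM in controls.

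Frizzled receptors, the seven-pass membrane proteins that bind Wnt ligands, kept nearly the same summed level while single receptors moved apart. Their 9 genes with a row summed to 52.3 and 55.3 FPKM with IL-22 and to 51.5 and 54.9 FPKM in controls, so the sums overlapped. Fzd7 had no row under that symbol. Fzd2 held about as much as all other Frizzled genes with a row. Its share was 48.8% and 52.0% of the sum with IL-22 and 53.2% and 54.4% in controls. Its levels of 25.6 and 28.8 FPKM with IL-22 and 27.4 and 29.9 FPKM in controls overlapped (-0.08, 95% interval from -0.27 to 0.12, limma adjusted p = 0.481). Fzd4, which also serves as the receptor of Norrin in retinal vessels, measured 11.1 and 10.1 FPKM with IL-22 and 7.44 and 7.59 FPKM in controls. It rose in both IL-22 libraries (0.44 ± 0.10 SE, limma adjusted p = 0.00447). Fzd1 measured 3.29 and 3.53 FPKM with IL-22 and 6.16 and 5.48 FPKM in controls, and this was the largest fall among tested members (-0.63 ± 0.12 SE, limma adjusted p = 0.00207).

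Fzd3, a receptor of axon guidance and planar polarity, measured 2.85 and 3.25 FPKM with IL-22 and 1.38 and 2.26 FPKM in controls. It was called higher (0.54 ± 0.18 SE, limma adjusted p = 0.0272), with no overlap but a wide gap between the controls. The call was lost without control library 1 (0.31, limma adjusted p = 0.140) and when IL-22 library 2 was left out (0.47, limma adjusted p = 0.0945). It was also lost with quantile normalization and without the filter, and limma adjusted p ran from 0.00649 to 0.140 over 15 alternatives. Fzd5, Fzd6 and Fzd8 overlapped between the groups and did not pass, at means of 4.43, 4.06 and 1.01 FPKM with IL-22 and 4.31, 4.00 and 1.04 FPKM in controls. Fzd8 was the member next above the minimum, and its 2 rows hold the same values in every library, so its level is uncertain. Fzd9 reached 0.124 FPKM at most and Fzd10 was listed at 0 throughout.

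Of the co-receptors, Lrp5 rose and Lrp6 did not pass. Lrp5, which pairs with Frizzled and whose cytoplasmic tail captures Axin, measured 47.6 and 50.4 FPKM with IL-22 and 32.1 and 30.3 FPKM in controls. The IL-22 libraries stood well above the controls, at 1.57 times their mean (0.63 ± 0.07 SE, limma adjusted p = 0.000107). Lrp6, its close relative, measured 21.6 and 19.9 FPKM with IL-22 and 19.7 and 18.8 FPKM in controls. Its groups did not overlap but came within a small margin of each other (0.10, 95% interval from -0.09 to 0.29, limma adjusted p = 0.315). Lrp5 took 68.0% and 71.1% of the co-receptor sum with IL-22 and 61.6% and 61.3% in controls. Ror1, a receptor for Wnt5a, was under the minimum at 0.775 and 0.539 FPKM with IL-22 and 0.256 and 0.313 FPKM in controls. Ror2, the other ROR receptor, was listed at 0 in all 4 libraries.

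The secreted inhibitors were a low group, and both genes above the minimum, Dkk4 and Wif1, were called higher, although Wif1 reached the minimum only through its IL-22 libraries. Dkk4, which blocks LRP5 and LRP6, measured 2.85 and 2.93 FPKM with IL-22 and 1.49 and 1.60 FPKM in controls. Each IL-22 library lay above both controls, at 1.87 times the control mean (0.61 ± 0.14 SE, limma adjusted p = 0.00524). Wif1, which binds Wnt ligands directly, measured 1.89 and 2.06 FPKM with IL-22 and 0.744 and 0.773 FPKM in controls. It rose to 2.60 times the control mean and had the largest difference of the tested members (0.76 ± 0.16 SE, limma adjusted p = 0.0031). The group as a whole summed to 5.90 and 5.92 FPKM with IL-22 and 2.59 and 2.94 FPKM in controls, so these sums stayed far below those of the ligands in every library. Sfrp5, a decoy that binds Wnt proteins, was under the minimum at 0.375 and 0.312 FPKM with IL-22 and 0 and 0.0480 FPKM in controls. Sfrp4 lay at 0.793 and 0.528 FPKM with IL-22 and 0.358 and 0.502 FPKM in controls, and Dkk3 at or under 0.0901 FPKM. Dkk1, Dkk2, Sfrp1, Sfrp2 and Frzb were listed at 0 in all 4 libraries.

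R-spondins bind LGR receptors and hold back RNF43 and ZNRF3, ubiquitin ligases that remove Frizzled from the cell surface. Lgr4, the widely expressed LGR receptor, measured 1.87 and 1.5 FPKM with IL-22 and 0.886 and 0.863 FPKM in controls. It was called higher with no overlap (0.51 ± 0.17 SE, limma adjusted p = 0.0248), although it reached the minimum only through its IL-22 libraries. The call was lost without control library 1 (0.52, limma adjusted p = 0.0651), without control library 2 (0.51, limma adjusted p = 0.0685) and when IL-22 library 1 was left out (0.41, limma adjusted p = 0.175). It was also lost with quantile normalization, and limma adjusted p ran from 0.00526 to 0.245 over 15 alternatives. Rnf43 measured 1.25 and 1.30 FPKM with IL-22 and 0.847 and 0.704 FPKM in controls. Its groups did not overlap, but it did not pass (0.36, 95% interval from -0.02 to 0.74, limma adjusted p = 0.0955). It passed as higher without the filter on low rows (limma adjusted p = 0.0268) and without the variance trend (limma adjusted p = 0.0119), over a range up to 0.733 in 13 alternatives. Rspo1 reached 0.222 FPKM and Lgr5, a stem cell receptor, 0.0383 FPKM in 1 IL-22 library, and both were listed at 0 in the controls. Rspo2 and Rspo3 were listed at 0 throughout.

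**Figure D3:**
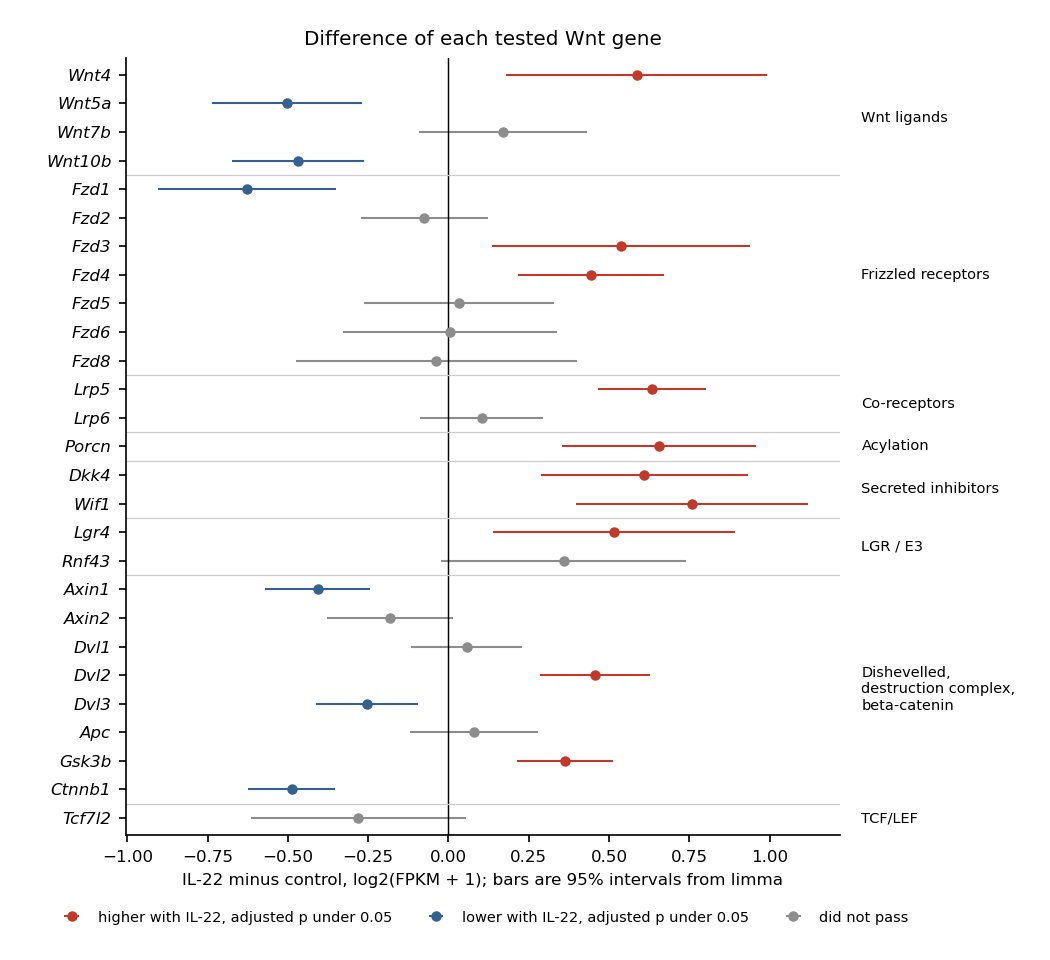
Difference between IL-22 and control on the log2(FPKM + 1) scale for the 27 tested Wnt genes, grouped by role, with 95% intervals from limma and colour for calls at an adjusted p under 0.05. The secreted inhibitors, Lrp5 and Porcn lie to the right, Ctnnb1 and Axin1 to the left, and the Dishevelled genes on both sides.

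Inside the cell, the transcript of beta-catenin and that of the scaffold Axin1 were lower, and that of the kinase Gsk3b was higher. Ctnnb1, which encodes beta-catenin, a protein of both Wnt signalling and cell adhesion, was by far the most abundant member. It measured 235 and 243 FPKM with IL-22 and 334 and 338 FPKM in controls, at the 97.9th percentile of all gene rows in both IL-22 libraries and the 98.6th in both controls. It fell to 0.712 times the control mean, with both IL-22 libraries far below both controls (-0.49 ± 0.06 SE, limma adjusted p = 0.000141). Axin1, the limiting scaffold of the destruction complex, measured 31.1 and 33.0 FPKM with IL-22 and 42.5 and 43.2 FPKM in controls (-0.41 ± 0.07 SE, limma adjusted p = 0.00123). Gsk3b, the kinase that marks beta-catenin for degradation, measured 61.7 and 62.0 FPKM with IL-22 and 47.2 and 48.6 FPKM in controls. Neither gene overlapped between the groups, and Gsk3b was higher by 0.36 ± 0.07 SE (limma adjusted p = 0.00145). Its close relative Gsk3a, named after its values were seen, measured 68.3 ± 2.65 FPKM with IL-22 and 88.7 ± 5.35 FPKM in controls (SD, n = 2 each) and fell (-0.37 ± 0.07 SE, limma adjusted p = 0.00187).

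Apc, the large scaffold that partners Axin, measured 21.9 and 20.6 FPKM with IL-22 and 18.9 and 21.2 FPKM in controls. The groups overlapped and it did not pass (0.08, 95% interval from -0.12 to 0.28, limma adjusted p = 0.461). Axin2, the inducible Axin whose promoter is shown above, measured 16.2 and 16.3 FPKM with IL-22 and 17.7 and 19.5 FPKM in controls. Both IL-22 libraries lay below both controls, but the difference did not pass (-0.18, 95% interval from -0.38 to 0.01, limma adjusted p = 0.0996). It passed as lower when the libraries were scaled to equal sums (-0.25, limma adjusted p = 0.0366).

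The Dishevelled genes, whose products relay the signal from Frizzled, moved in opposite directions. Dvl2 measured 28.4 and 28.6 FPKM with IL-22 and 20.4 and 20.6 FPKM in controls, a rise to 1.39 times the control mean with little spread within either group (0.46 ± 0.08 SE, limma adjusted p = 0.000802). Dvl3, the most abundant of them, measured 45.6 and 48.8 FPKM with IL-22 and 56.1 and 56.6 FPKM in controls. It was lower in both IL-22 libraries (-0.25 ± 0.07 SE, limma adjusted p = 0.0123), but it no longer passed after leaving out IL-22 library 1 (-0.21, limma adjusted p = 0.129) or under quantile normalization. Limma adjusted p of Dvl3 ran from 0.0030 to 0.129 over 15 alternatives. Dvl1 measured 37.8 and 41.0 FPKM with IL-22 and 39.0 and 36.7 FPKM in controls, and its groups overlapped (0.06, 95% interval from -0.12 to 0.23, limma adjusted p = 0.547).

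Of the nuclear factors with a row, only Tcf7l2, which binds DNA and recruits beta-catenin, lay above the minimum. It measured 7.31 and 7.79 FPKM with IL-22 and 7.84 and 11.2 FPKM in controls. The groups did not overlap, but control library 1 came close to the IL-22 libraries and control library 2 stood apart (-0.28, 95% interval from -0.62 to 0.05, limma adjusted p = 0.133). Without control library 1 it passed as lower (-0.51, limma adjusted p = 0.0202). Tcf7l1, best known as a repressor among these factors, was under the minimum at 0.663 and 0.751 FPKM with IL-22 and 0.0958 and 0.112 FPKM in controls. The ratio of these means was 6.80, and the groups lay far apart on this low scale. Lef1 was listed at 0 in all 4 libraries.

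When rows under the minimum were tested as well, 3 of the 15 low members that were above 0 in some library passed. These were Tcf7l1 (0.63, limma adjusted p = 0.00382), Sfrp5 (0.39, limma adjusted p = 0.00973) and Ror1 (0.36, limma adjusted p = 0.0397), all higher with IL-22. Their SE were 0.058, 0.056 and 0.092. On this scale the spread of values under 1 FPKM is shrunk as well, so these p-values are uncertain. Over all 12482 rows of that fit 40.7% were called and 20.3% were called higher, so the low members were called no more often than the rows of that fit as a whole.

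**Figure D4:**
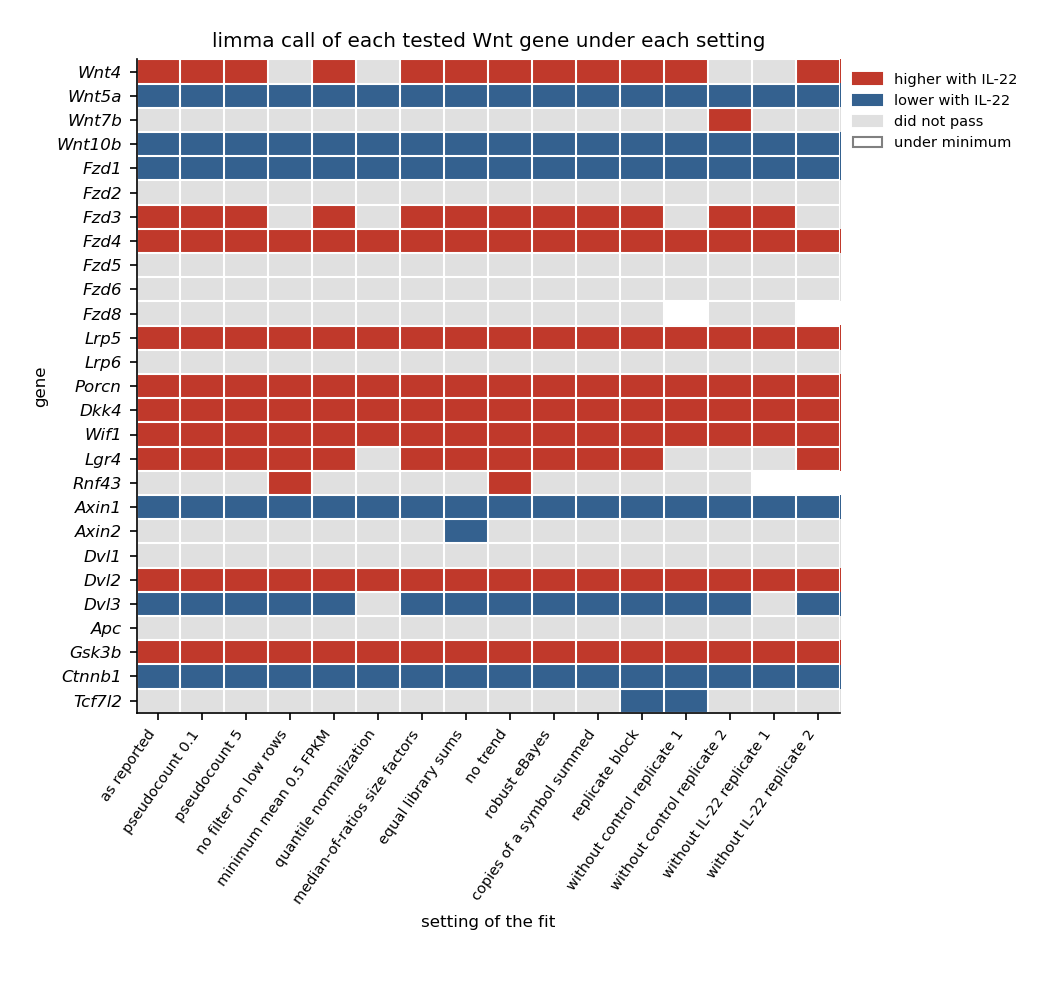
limma call of each of the 27 tested Wnt genes (rows) under the reported fit and 15 alternatives (columns), where white cells mark fits in which the gene lay under the minimum. Of the 16 called genes 12 are called alike in all columns, and Wnt4, Fzd3, Lgr4 and Dvl3 lose their call in 2 to 4 of them.

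Beyond the members, 158 further genes of the pathway had a row, and 118 of them were tested, of which 38 were higher, 29 lower and 51 did not pass (median difference 0.03, limma adjusted p under 0.05 over all rows). In this set 56.8% were called, where 58.4% of all tested rows were called, 27.6% higher and 30.8% lower. Per list the share called ran from 37.5% for the kinase and turnover genes to 85.7% for extracellular modulators and adherens junction genes. With libraries scaled to equal sums the split of the whole set was 27 higher and 38 lower, and that scaling moved all genes in the same direction. The splits of single lists were not computed with that scaling. Of the calls in this set 56.7% were higher in the reported fit and 41.5% with equal sums, beside 47.3% and 39.9% of the calls over all rows.

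Modulators outside the cell gave 3 higher and 3 lower of 7 tested (median -0.21, beside -0.02 over all tested rows). Notum, an enzyme that strips the lipid from Wnt proteins, measured 0.486 and 0.607 FPKM with IL-22 and 2.76 and 3.02 FPKM in controls. It reached the minimum only through its controls and fell to 0.189 times their mean (-1.33 ± 0.16 SE, limma adjusted p = 0.000118). Igfbp4, which binds insulin-like growth factors and has been described as a Wnt antagonist, measured 44.5 and 44.5 FPKM with IL-22 and 135 and 116 FPKM in controls and fell (-1.47 ± 0.08 SE, limma adjusted p = 1.5e-06). Kremen1, the partner of DKK proteins at LRP5 and LRP6, measured 26.9 and 26.3 FPKM with IL-22 and 14.4 and 13.0 FPKM in controls and rose (0.91 ± 0.09 SE, limma adjusted p = 3.14e-05). Serpinf1, the gene of the secreted factor PEDF, measured 2.29 and 3.94 FPKM with IL-22 and 1.19 and 1.24 FPKM in controls and was called higher (0.87, limma adjusted p = 0.00502). Without IL-22 library 2 the difference was 0.57. Its call was lost without control library 1 (0.85, limma adjusted p = 0.0673) and without control library 2 (0.88, limma adjusted p = 0.061), with limma adjusted p from 9.47e-05 to 0.0673 over 15 alternatives. Wls, which carries Wnt proteins to the cell surface and is named here after its values were seen, measured 21.3 and 19.4 FPKM with IL-22 and 23.8 and 23.4 FPKM in controls (-0.21, limma adjusted p = 0.0544). It passed as lower with equal library sums (-0.28, limma adjusted p = 0.0195) and with the replicate number as a block (limma adjusted p = 0.0480), over a range up to 0.338 in 15 alternatives.

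Kinases, phosphatase subunits and turnover genes of beta-catenin gave 8 higher and 4 lower of 32 tested (median 0.01). That is 37.5% called, where 58.4% of all tested rows were called. Csnk1e, a kinase that phosphorylates Dishevelled, measured 63.3 and 71.1 FPKM with IL-22 and 34.4 and 32.8 FPKM in controls, with the groups far apart (0.98 ± 0.08 SE, limma adjusted p = 1.24e-05). Ppp2r5b, a regulatory subunit of phosphatase PP2A, and Siah2, a ubiquitin ligase, were also higher, by 0.81 and 0.53. Skp1, an adaptor of SCF ubiquitin ligases, was lower (-0.58). Nuclear co-factors gave 6 higher and 9 lower of 24 tested (median -0.04), so 62.5% were called. The SOX factor Sox7 was higher (0.65), and the ATPase Ruvbl1 (-0.51) and the remodeller Chd8 (-0.40) were lower. Hbp1, a repressor of transcription, was called higher (0.40, limma adjusted p = 0.0176). That call was lost without control library 1 (0.44, limma adjusted p = 0.0734), control library 2 (0.35, limma adjusted p = 0.118) or IL-22 library 1 (0.26, limma adjusted p = 0.156) and without the filter, with limma adjusted p from 0.00419 to 0.156 over 15 alternatives.

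Genes of the planar polarity and calcium branches gave 10 higher and 1 lower of 26 tested (median 0.13). Thus 42.3% of this list were called in either direction, less than the 58.4% of all tested rows. Over all tested rows 27.6% were called higher and 30.8% lower. Nfatc4, a factor activated by calcium and calcineurin, measured 7.10 and 8.04 FPKM with IL-22 and 2.91 and 2.65 FPKM in controls (1.18 ± 0.12 SE, limma adjusted p = 5.39e-05). Its relative Nfatc3 was the 1 gene of the list called lower, at 6.44 and 8.02 FPKM with IL-22 and 11.5 and 13.1 FPKM in controls (-0.70 ± 0.12 SE, limma adjusted p = 0.0011). The polarity gene Prickle1 (0.91) and Mapk9, which encodes the kinase JNK2 (0.82), were higher. Prickle1 reached the minimum only through its IL-22 libraries.

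Genes that beta-catenin induces in other tissues, of which most also answer to other signals, gave 8 higher and 10 lower of 23 tested (median -0.21). In this list 78.3% were called, where 58.4% of all tested rows were called. The largest differences were the fall of Id2, an inhibitor of differentiation (-2.54), the rise of the vascular growth factor gene Vegfa (2.00), the fall of Notum and the rise of the adhesion receptor gene Cd44 (1.17). Among targets named after their values were seen, the cyclin gene Ccnd1 fell (-0.58, limma adjusted p = 4.64e-05). Myc measured 47.1 and 44.9 FPKM with IL-22 and 43.7 and 48.5 FPKM in controls and did not pass, with overlapping groups (limma adjusted p = 0.98). Tnfrsf19 did not pass (-0.21, limma adjusted p = 0.362). It passed as lower without IL-22 library 1 (-0.47, limma adjusted p = 0.0473) and measured 0.06 without IL-22 library 2. Nkd1, a feedback inhibitor, stayed at or under 0.0496 FPKM, and the transcription factor gene Sp5 was listed at 0 in all 4 libraries.

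Genes of adherens junctions, where cadherins bind beta-catenin at the membrane, gave 3 higher and 3 lower of 7 tested (median -0.05). Cdh3, the gene of P-cadherin, measured 33.7 and 37.7 FPKM with IL-22 and 75.4 and 76.5 FPKM in controls, a fall to 0.470 times the control mean (-1.07 ± 0.08 SE, limma adjusted p = 5.85e-06). Cdh2, the gene of N-cadherin, also fell (-0.44). Jup, which encodes the beta-catenin relative plakoglobin, measured 5.17 and 5.27 FPKM with IL-22 and 2.14 and 2.26 FPKM in controls and rose (0.96 ± 0.13 SE, limma adjusted p = 0.000207). Ctnnd2, the gene of delta-catenin, rose too (0.70).

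**Figure D5:**
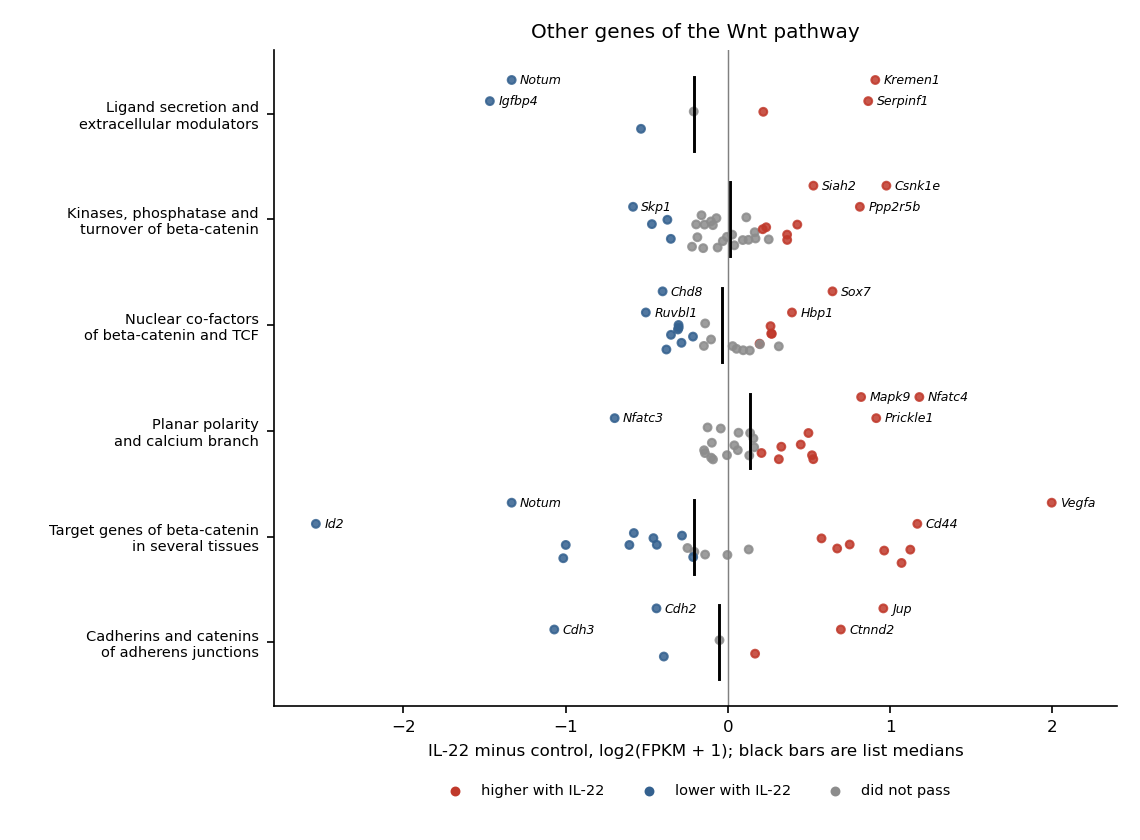
Difference between IL-22 and control on the log2(FPKM + 1) scale for tested genes of 6 further lists of the Wnt pathway, 1 point per gene, with black bars at the list medians and names for up to 4 called genes per list. Calls lie on both sides of 0 in every list. In the planar polarity and calcium list 10 of 26 tested genes are called higher and Nfatc3 alone is called lower. Over all tested rows 27.6% are called higher and 30.8% lower.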

How the data were processed

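The authors deposited FPKM per gene, 1 column per library, made from poly(A) RNA, per the labels' protocols. Per the submitters' processing notes, TopHat2 and Cuffdiff were used with genome build rn5. The sources used here do not state the annotation, strandedness, filters or library scaling, so overlapping, antisense and near-identical genes may share reads. An exact 0 can be a failed estimate, so genes are described as listed at 0. A table of lncRNAs was not used here.

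Count models were not applied, because the values are normalized. The 9485 rows averaging 1 FPKM or more entered a two-group limma fit (version 3.58.1, R 4.3.3) of log2(FPKM + 1), with a variance trend, no covariates and two-sided p-values adjusted by Benjamini-Hochberg to a threshold of 0.05. On this scale differences of low genes come out too small. Ratios were taken between group means of FPKM. The members and lists were chosen with earlier results of these data known. Named were all members, and per further list up to 4 called genes by absolute difference. All 59 member symbols matched RefSeq (GRCr8), which supplied promoter windows only. Alternatives covered pseudocounts, filters, scalings, variance models, summed copies, the replicate number as a block and leaving out each library. Figures were made with Python 3.11.15 and matplotlib 3.10.9.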

Additional observations from a re-analysis of the deposited data

How the results depend on the processing

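Of the 16 called members 12 kept their call and direction under all 15 alternatives, and Wnt4, Fzd3, Lgr4 and Dvl3 lost theirs in 2 to 4. Calls among members ran from 7 to 12 higher and from 5 to 7 lower, so no alternative moved either count by over 1.5 times. The median difference of the tested members, 0.08, was 0.0143 with libraries scaled to equal sums and ran from 0.0017 to 0.16 when 1 library was left out. The cause was not tested. Under quantile normalization Fzd5 (-0.0624), Fzd6 (-0.11) and Myc (0.10) changed sign. Under equal sums Fzd5 (-0.0233), Fzd6 (-0.0496) and Dvl1 (-0.0102) did, and Myc did with size factors (0.0040). None of these passed there or in the reported fit. Leaving out 1 library turned further genes that had not passed: Wnt7b ran from -0.0056 to 0.35, Fzd2 from -0.16 to 0.0067, Fzd5 from -0.0620 to 0.13, Fzd6 from -0.18 to 0.19, Fzd8 from -0.0892 to 0.17, Myc from -0.0768 to 0.0716 and Tnfrsf19 from -0.47 to 0.0560. Fzd8 and Rnf43 could not be fitted in 2 of these fits, where they fell under the minimum. The single library left in a group was given the other group's spread.

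Same-numbered libraries did not deviate together (correlation -0.0020 over tested rows), and the labels do not say that a number marks a shared culture, so the numbers were not used as pairs. With the replicate number as a block, 10 members were higher and 7 lower, Tcf7l2 being the added one (-0.28, limma adjusted p = 0.0461). Unknown absolute depth limits what can be said of members under 1 FPKM.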
